A study of Mus musculus with 7 samples.

Results

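The regions described here are 2460 peaks of EKLF, the erythroid Krüppel-like factor encoded by Klf1, called in erythroblasts at a middle distance from genes. These sites had no overlapping peak called in erythroid progenitors, which does not show that EKLF was absent there. They were chosen from the deposited peak lists: an erythroblast peak was taken when it overlapped no progenitor peak by even 1 bp and lay more than 1 kb and at most 50 kb from the nearest listed coding exon start on mouse build mm9. They made up 12.7% of the 19353 erythroblast peaks (Wilson 95% interval 12.2 to 13.2) and 18.4% of the 13376 erythroblast peaks with no progenitor overlap. Overlap and distance decided the choice, and peak strength comes from the same peak calls, so these measures are given as a description with no test.

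All samples came from the fetal liver of E13.5 mice whose Klf1 carried a hemagglutinin tag, so that an antibody against the tag could pull down the factor in chromatin immunoprecipitation sequencing (ChIP-seq). Sorting used Ter119, which appears as red cells mature, and CD71 (the transferrin receptor): the progenitors were a pool of Ter119-CD71- and Ter119-CD71+ cells, and the erythroblasts were Ter119+CD71+. Every group carried the tagged allele, and no group lacked EKLF. The 7 samples were 2 EKLF ChIP libraries, 2 input libraries that served only as background for peak calling, and 3 RNA libraries, of which 2 were from erythroblasts. The deposited values gave 1 pooled peak list and 1 column of RNA coverage per stage. Whether the erythroblast column pools both erythroblast RNA libraries is not stated, so its values are printed as the authors' with no error. Differences between stages thus have no replicate check, and the depth behind the peak lists is unknown. The progenitor list held 7358 peaks, against 19353 in the erythroblast list.

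EKLF is a zinc finger transcription factor of red cells that binds CACCC-type elements, of consensus CCNCNCCC, and activates globin, heme, membrane and cell cycle genes. In the fetal liver, progenitors lacking Ter119 divide and become erythroblasts, which fill with hemoglobin, build the spectrin skeleton and shrink before losing the nucleus. Erythroid genes are often controlled by distal elements, such as the locus control region of the beta globin cluster and the elements in the introns of Nprl3 that serve the alpha globin genes.

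RNA was measured as exon coverage, a signal that the authors named RPKM and that is comparable between stages for 1 gene but not between genes. The table listed 30257 coding exons, none under 0.8 in either stage, and gave 5192 genes. Genes silent in either stage are not in it, and a gene's listed exons are often only some of its exons: 1549 genes had a single one. The distance of a peak is therefore the distance to a listed exon, and the nearest listed gene need not be the gene a site serves. In the RefSeq gene order (GRCm38.p6, used only for names and order), 2353 of the sites lay between a pair of listed genes, and at least 1 other protein-coding gene stood in that gap for 1871 of them (79.5%), with a median of 2. The lists of hepatocyte, macrophage, granulocyte, B lymphoid and endothelial markers had no listed gene, and that of megakaryocytes had 1, Gp1ba. Tfrc, which encodes CD71, had a coverage of 21.3 in progenitors and 148 in erythroblasts.

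The sequence under the peaks was not analysed here. As examples of promoters of genes with a middle-distance peak, the 250 bases before the start of 5 genes are printed. They are from RefSeq (GRCm38.p6), 5′ to 3′ on the gene's strand, and whether EKLF bound in these windows was not examined. They are the 5 largest rises among 84 genes whose RNA was at least 2-fold higher in erythroblasts. Each of the 84 had a middle-distance peak within 15 kb on the 5′ side and exactly 1 promoter in that table. Capitals mark matches to CCNCNCCC on either strand. The windows are chr7:103813924-103814173 on the minus strand for Hbb-bt, an adult beta globin gene, and chr6:135168216-135168465 on the minus strand for Hebp1, a heme-binding protein. Those of the other 3 genes are chr5:137294419-137294668 on the plus strand for Ufsp1, a protease of the UFM1 modifier, chr17:36869324-36869573 on the plus strand for Trim10, a tripartite motif protein of erythroid cells, and chr7:4739877-4740126 on the plus strand for Kmt5c, a methyltransferase of histone H4.
Hbb-bt: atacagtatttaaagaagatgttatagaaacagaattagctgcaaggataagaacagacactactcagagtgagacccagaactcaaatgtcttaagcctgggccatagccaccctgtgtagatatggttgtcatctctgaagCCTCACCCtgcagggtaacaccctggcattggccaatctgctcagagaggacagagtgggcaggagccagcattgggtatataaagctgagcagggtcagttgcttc
Hebp1: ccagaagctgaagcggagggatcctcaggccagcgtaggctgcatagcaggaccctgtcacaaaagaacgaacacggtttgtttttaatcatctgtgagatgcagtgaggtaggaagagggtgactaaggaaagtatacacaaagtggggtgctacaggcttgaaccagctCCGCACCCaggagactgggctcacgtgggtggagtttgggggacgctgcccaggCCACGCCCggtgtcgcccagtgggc
Ufsp1: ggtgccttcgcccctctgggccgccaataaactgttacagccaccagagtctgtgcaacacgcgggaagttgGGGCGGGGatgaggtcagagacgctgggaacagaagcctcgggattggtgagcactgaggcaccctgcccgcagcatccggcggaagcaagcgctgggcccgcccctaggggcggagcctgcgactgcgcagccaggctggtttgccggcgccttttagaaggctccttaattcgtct
Trim10: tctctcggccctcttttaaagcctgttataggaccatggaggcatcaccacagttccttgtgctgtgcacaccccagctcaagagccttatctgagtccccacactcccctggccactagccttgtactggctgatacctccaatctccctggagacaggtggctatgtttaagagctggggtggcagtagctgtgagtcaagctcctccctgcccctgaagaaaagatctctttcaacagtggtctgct
Kmt5c: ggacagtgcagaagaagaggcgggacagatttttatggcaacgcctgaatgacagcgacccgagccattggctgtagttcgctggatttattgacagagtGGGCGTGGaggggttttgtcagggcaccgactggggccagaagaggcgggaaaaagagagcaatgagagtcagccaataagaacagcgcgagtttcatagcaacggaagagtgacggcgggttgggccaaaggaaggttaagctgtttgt

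Hbb-bt held 1 match to CCNCNCCC, Ufsp1 and Kmt5c each held 1 on the opposite strand, Hebp1 held 2 and Trim10 none. The shorter word CACCC, searched on both strands and able to overlap CCNCNCCC, occurred 3 times in Hbb-bt, 4 times in Hebp1, 2 times in Trim10, 1 time in Ufsp1 and not in Kmt5c. These words are common in promoters. CCNCNCCC was in 45.9% of the 32851 promoters of the table, in 63.8% of those of listed genes and in 62.9% of those of genes with a middle-distance peak, of which 1499 of 1852 were in the table. Among genes that had such a peak and rose in RNA the share was 67.7%. NGATAA, the word of GATA factors, was in 14.3% of listed promoters and in 18.3% of those of genes with a peak that rose, and CANNTG, the E-box of TAL1 and related factors, in 53.5% and 52.4%. These shares cover promoters and not the peaks, and a match is only a match of letters.

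By the authors' own scores the peaks had the enrichment of a typical erythroblast peak and were weaker than shared peaks at the same distance. Their median enrichment over background was 9.21 (middle 50% 7.57 to 12.3, range 3.15 to 43.82), and their median −log10 p was 8.57, where 5 is the lowest that entered the list. Over all erythroblast peaks the medians were 9.31 and 10.2. Erythroblast peaks at the same distance that were shared with progenitors had a median enrichment of 12.4 and a median −log10 p of 14.5. Erythroblast-only peaks within 1 kb of an exon start had a median enrichment of 10.6, and those beyond 50 kb 8.70. An enrichment of at least 20 was reached by 62 of the middle-distance peaks (2.52%) and by 270 of the 1770 shared peaks at that distance (15.3%). By −log10 p, 5 of the 100 highest-ranked erythroblast peaks were middle-distance sites, and 312 of the lowest-ranked 1935 were (16.1%). Most peaks were narrow, with a median width of 1631 bp, and 4 were wider than 10 kb.

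**Figure D1:**
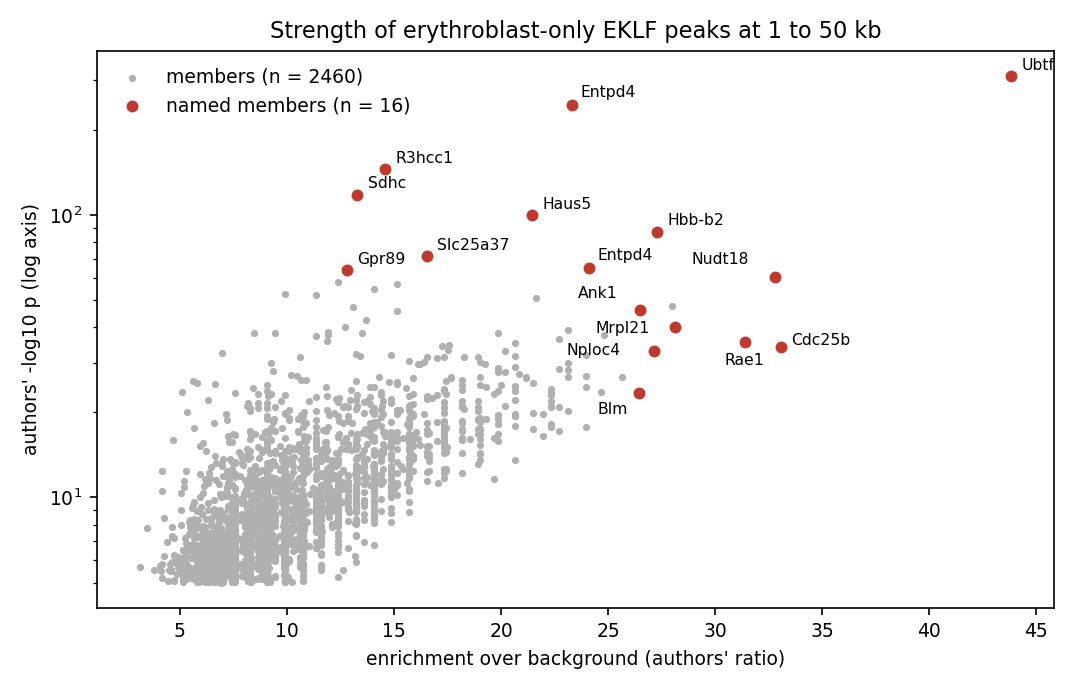
Enrichment over background (horizontal, the authors' ratio) and −log10 p (vertical, log axis) of each of the 2460 middle-distance erythroblast-only peaks; grey points are all of them and red points 16 named by rank, labelled with the nearest listed gene. The middle 50% of the points lie between an enrichment of 7.57 and 12.3, and the peak labelled Ubtf stands apart at 43.82.

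Several of the strongest sites lay at erythroid loci. First by −log10 p was a site of 20030 bp at chr11:102207595-102227624, with an enrichment of 43.82 and a −log10 p of 310, which ranked 25 in the whole list. Its nearest listed gene was Ubtf, a factor of ribosomal RNA transcription, 29.9 kb away, but in the RefSeq order Slc4a1 and Rundc3a stand between Ubtf and Slc25a39. Slc4a1 encodes band 3, the main anion exchanger of the red cell membrane, and its exons are not in the coverage table. A further pair of middle-distance peaks lay in the same gap, with enrichments of 13.23 and 8.94.

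The beta globin cluster held 1 of the sites, chr7:110972955-110977046, with an enrichment of 27.28 and a −log10 p of 87.2. It lay 11.8 kb on the 5′ side of Hbb-b2/Hbb-bt, a joined item because the near-identical genes share exon names, and the next gene on that side in the RefSeq order is Hbb-bs. The nearest progenitor peak was 599 kb away. A further erythroblast-only peak lay within 1 kb of the listed exon start of the globin item and so was not among the sites. Coverage of the globin item was 9.59 in progenitors and 1686 in erythroblasts, the largest rise of any gene with such a site (7.32 on the log2 scale). Reads of the adult beta globin copies may be split or shared between them by the authors' counting, so this value is uncertain for the single gene.

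On chromosome 14, sites crowded around the mitochondrial iron importer Slc25a37 (mitoferrin) and its neighbours. The peak at chr14:69869651-69875892 lay 2.20 kb on the 5′ side of Slc25a37, with an enrichment of 16.53. A shared erythroblast peak of enrichment 42.17, which overlapped 3 progenitor peaks, began 0.371 kb beyond it, and the nearest progenitor peak was 11.7 kb away. Coverage of Slc25a37 was 6.42 in progenitors and 196 in erythroblasts. Between Entpd4 and R3hcc1, 9 sites formed the largest cluster, when neighbours with gaps of at most about 13 kb are joined. It ran over 86.3 kb at chr14:70004594-70090860, of which 70.4 kb were covered by the 9 peaks, and enrichments ran from 4.26 to 24.13. The cluster includes the widest of all the sites, 21350 bp at chr14:70057891-70079240 with an enrichment of 14.60. The RefSeq order places Loxl2, Entpd4b and 3 predicted genes between Entpd4 and R3hcc1. Coverage of Entpd4, a nucleoside diphosphatase that was the nearest listed gene to 10 sites, was 3.52 in progenitors and 2.51 in erythroblasts, and that of R3hcc1, with 5 sites, was 5.65 and 14.

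A 5-site cluster on the same chromosome, at chr14:70998710-71027767, lay in the gap between Nudt18 and Xpo7. Its strongest peak, chr14:70998710-71002053, had an enrichment of 32.80. Nudt18, a nucleotide hydrolase with 5 nearest sites, had a coverage of 0.98 in progenitors and 16.2 in erythroblasts (3.12 on the log2 scale), while Xpo7, a nuclear exporter with 4, had 11.7 and 14.5. Dmtn, which encodes the membrane skeleton protein dematin, stands in that gap in the RefSeq order and is not in the coverage table, and 7 of the sites lay in the gap.

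**Figure D2:**
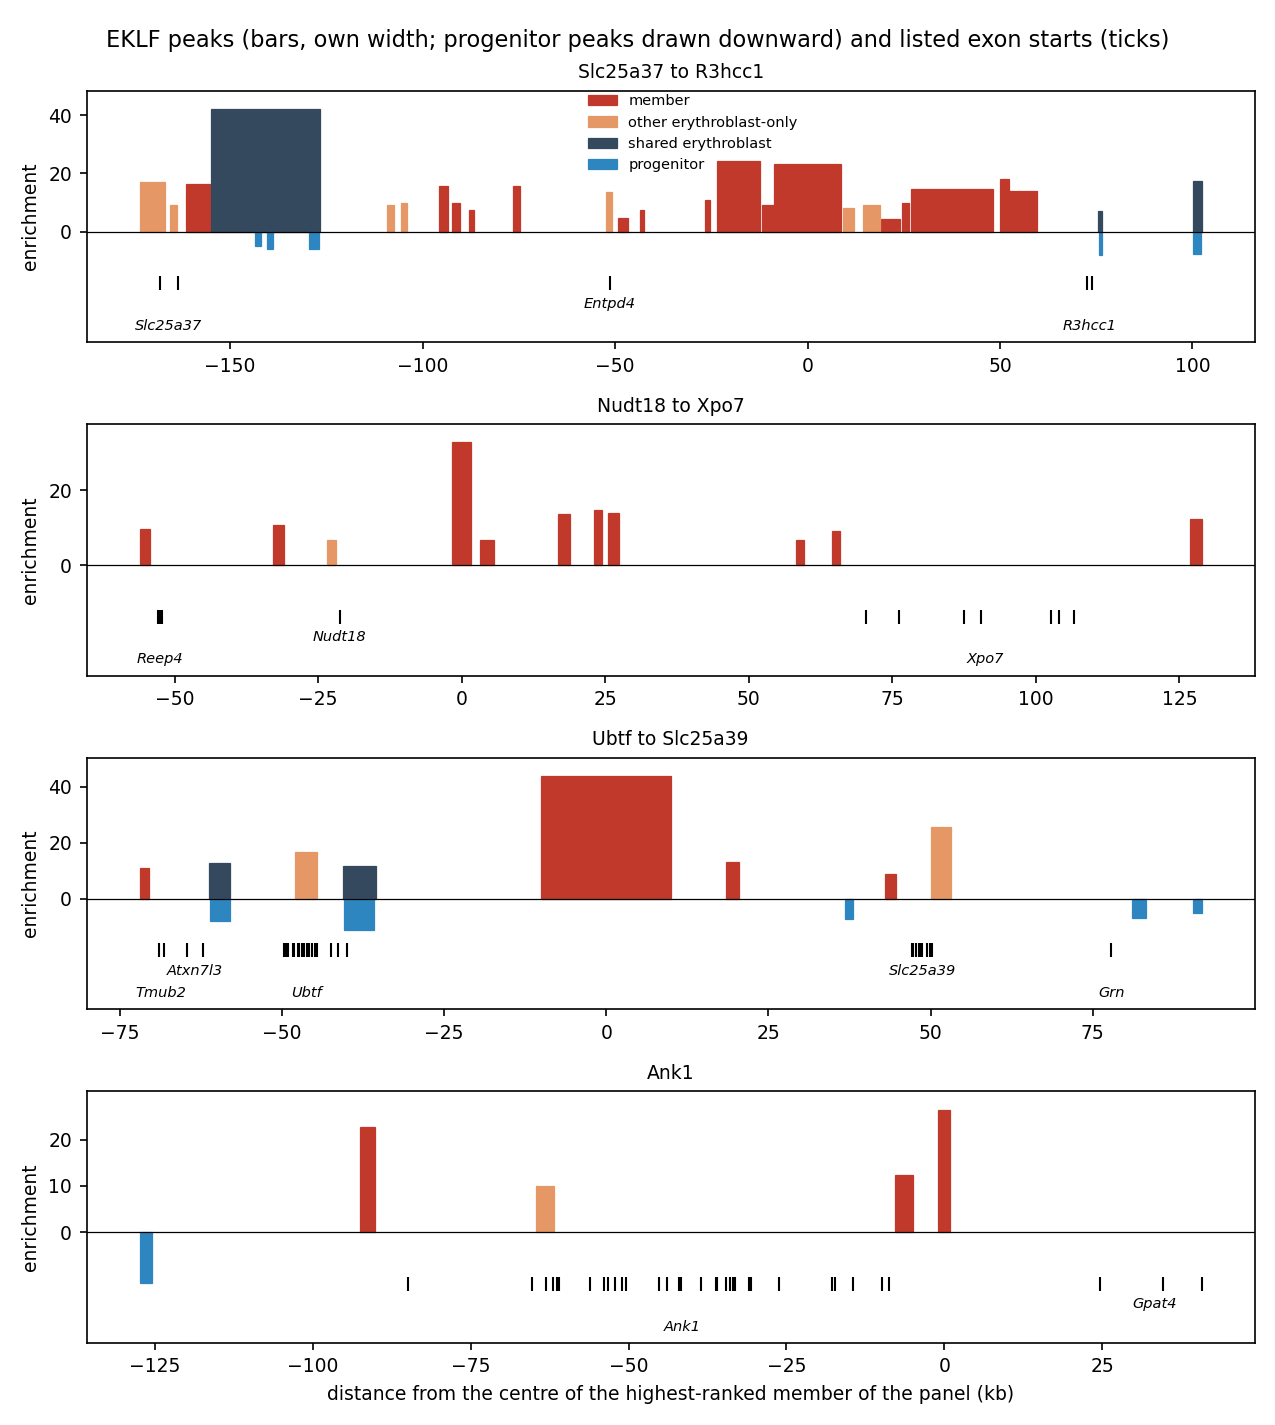
EKLF peaks at 4 loci, drawn at their own width and at the height of their enrichment against distance in kb from the centre of the highest-ranked middle-distance site. Red bars are the sites described here, orange bars other erythroblast-only peaks, dark bars shared erythroblast peaks and blue bars, drawn downward, progenitor peaks; black ticks are listed exon starts. The red bars between Entpd4 and R3hcc1 reach an enrichment of 24.13, and no progenitor bar lies beneath them.

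Other sites high by −log10 p or by enrichment were near genes of varied function. The peak at chr7:31473481-31481465 (enrichment 21.45) was nearest to Haus5, a subunit of the augmin complex of the spindle. That at chr1:173007366-173014738 (enrichment 13.29) was nearest to Sdhc, a subunit of succinate dehydrogenase, and had a progenitor peak only 0.355 kb away. That at chr3:96644326-96649646 (enrichment 12.80) was nearest to Gpr89, an ion channel of the Golgi. The site at chr2:131034875-131036571 (enrichment 33.07) was nearest to Cdc25b, a phosphatase that starts mitosis, and chr2:172825032-172826945 (enrichment 31.42) lay 1.22 kb on the 5′ side of Rae1, an mRNA export factor. Others high by enrichment were chr19:3317214-3319011 (28.11, nearest Mrpl21), chr11:120297578-120299453 (27.15, Nploc4), chr8:24259463-24261359 (26.49, Ank1) and chr7:87678931-87680826 (26.46, the helicase gene Blm). At the limits of the rule, sites at 1011 bp from Med8 and 1016 bp from Clk2 were taken and peaks at 982 bp from Garre1 and 991 bp from Gmpr were not, with enrichments of 14.38, 16.11, 9.08 and 8.27. At the upper limit, sites at 49773 bp from Dazap2 and 50000 bp from Bahd1 (8.83 and 6.31) were taken, and those at 50049 bp from Slc38a10 and 50097 bp from Dhdds (10.09 and 9.05) were not.

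The sites favoured the 5′ side of the listed exons. Of the 2460 sites, 1476 lay on the 5′ side of the nearest gene's listed exons (60.0%, Wilson 95% interval 58.0 to 61.9), 890 on the 3′ side (36.2%) and 94 between listed exons (3.82%). The 5′ side includes 5′ exons and introns that are not listed. Shared peaks at the same distance were on the 5′ side more often (71.1%, 69.0 to 73.2) and between listed exons less often (1.19%). These intervals cover counting error only, and no test was made over peaks, which are not replicates.

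Density separated the groups by side. By peak centres, erythroblast-only peaks fell from 19.3 per Mb of genome at 1 to 5 kb on the 5′ side to 5.75 per Mb at 35 to 50 kb. On the 3′ side the density was nearly level, from 6.16 to 5.28 per Mb. Shared peaks fell on both sides, from 22.2 to 3.86 per Mb on the 5′ side and from 4.59 to 1.98 on the 3′ side. Between listed exons, erythroblast-only peaks stood at 2.49 per Mb and shared peaks at 0.55. The share of erythroblast peaks that were erythroblast-only was therefore higher at longer distance, from 50.7% at 1 to 5 kb to 65.3% at 35 to 50 kb.

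**Figure D3:**
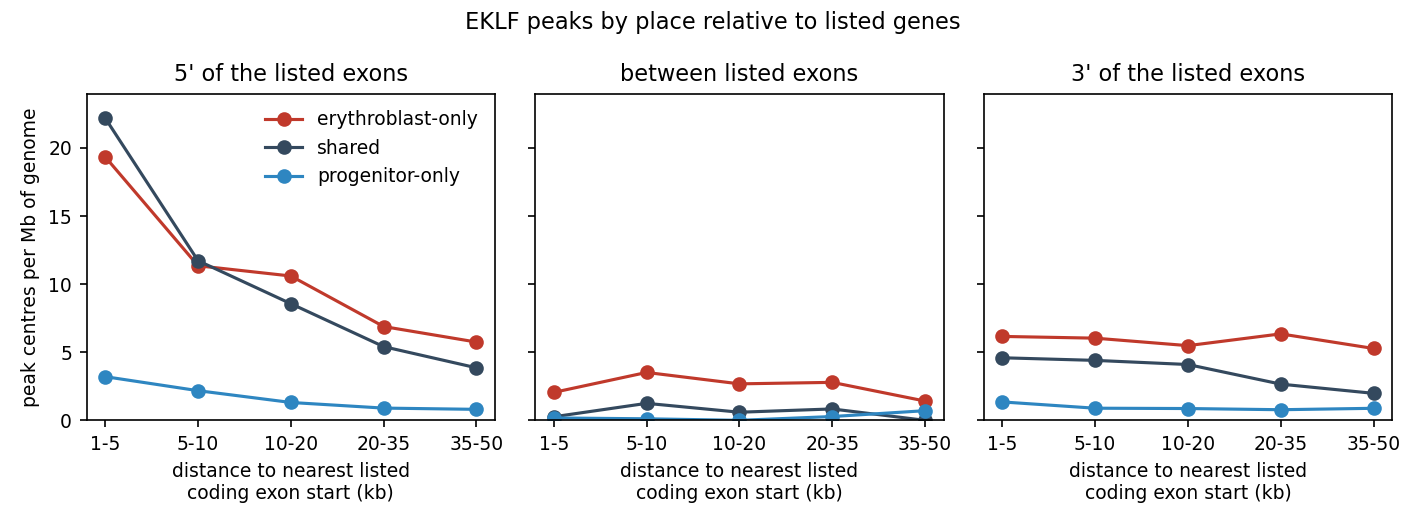
Density of peak centres (vertical, per Mb of genome at that distance) against distance to the nearest listed coding exon start (horizontal, kb), on the 5′ side, between listed exons and on the 3′ side. Red is erythroblast-only, dark is shared with progenitors and blue is progenitor-only; on the 5′ side the red line falls from 19.3 to 5.75 per Mb, and on the 3′ side it stays between 5.28 and 6.35.

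Most sites had no other middle-distance site close by, when other erythroblast peaks are left out of account. Joining sites with gaps up to that limit gave 2178 groups, of which 1942 were single sites, 205 were pairs, 24 held 3 and only 7 held 4 or more. The median distance to the nearest shared erythroblast peak was 53.6 kb, to the nearest progenitor peak 45.1 kb and to any other erythroblast peak 21.5 kb. For shared peaks at the same distance from genes, the median to any other erythroblast peak was 29.4 kb. Another erythroblast peak lay within 10 kb of 764 sites (31.1%) and of 363 of those shared peaks (20.5%). Only 28 sites (1.14%) lay within 1 kb of a progenitor peak. Sites were on all chromosomes with listed genes, from 36.1 per 100 listed genes on chromosome X to 59.4 on chromosome 16.

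Of the 5192 listed genes, 1852 (35.7%) were the nearest gene to at least 1 site: 1400 had 1, 353 had 2, 79 had 3 and 20 had 4 or more. For 1022 of the 1852, the middle-distance sites were the only erythroblast EKLF peaks within 50 kb that were assigned to the gene. Each peak was assigned to its nearest listed gene only, so a peak nearer another gene could still lie within 50 kb. RNA was compared as log2((erythroblasts + 1) / (progenitors + 1)), and a gene is said to have risen or fallen when it differed by at least 2-fold. No test is possible with 1 column per stage. Over all listed genes 795 rose (15.3%) and 684 fell (13.2%), with a median of 0.03.

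The shares of genes with a site that rose or fell were near the background. Among the 1852 genes with a site 308 rose (16.6%, Wilson 95% interval 15 to 18.4) and 261 fell (14.1%, 12.6 to 15.8), close to the share over all genes, and their median was 0.04. Genes with no site rose in 14.6% and fell in 12.7%. Genes with no erythroblast peak within 50 kb assigned to them rose in 13.8% and fell in 13.2%. Genes with shared peaks at 1 to 50 kb and no site rose in 15.5% and fell in 12.7%. By distance of the site, the share that rose was 18.5% at 1 to 5 kb, 15.4% at 10 to 20 kb and 20.2% at 35 to 50 kb, with no steady trend. Among genes with a site of enrichment 20 or more, 14 of 59 rose (23.7%, 14.7 to 36.0), an interval that takes in the 15.3% of all genes. Among genes with a site in the top 5% of the list by −log10 p, 11 of 39 rose (28.2%, 16.5 to 43.8) and 4 fell. That interval lies above 15.3%, but it rests on few genes and covers counting error only.

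The share of genes that rose was higher with 2 sites and with 4 or more but not with 3, on small numbers. With 2 sites 76 of 353 genes rose (21.5%, 17.6 to 26.1), with 3 sites 12 of 79 (15.2%), and with 4 or more 8 of 20 (40%, 21.9 to 61.3) against 2 that fell. The 8 were Nudt18, R3hcc1, Atp6v0b, Phospho1, Acp5, Cdkn1b, Gpr146 and Rbm12b2, the last named after its values were seen. Of the 20 genes, 13 had at most 2 listed exons, and among the 7 with at least 3 listed exons 2 rose and 2 fell. Without chromosome 14, 6 of 16 rose, and the median of the genes with 4 or more sites moved from 0.20 to −0.02.

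Among these genes, Cdkn1b, the cyclin-dependent kinase inhibitor p27 that halts the cell cycle, had 4 sites. The strongest, chr6:134878079-134879595, had an enrichment of 20.67 and lay 7.14 kb on the 3′ side of the listed exon. Its coverage was 3.99 in progenitors and 34.4 in erythroblasts. Atp6v0b, a subunit of the vacuolar proton pump, had 5 sites on its 3′ side within 42.8 kb, and its coverage was 6.56 in progenitors and 43.2 in erythroblasts, higher in 3 of 3 listed exons. Acp5, a lysosomal acid phosphatase, had 4 sites on its 5′ side, the strongest at chr9:21960675-21962443 with an enrichment of 18.55, and its coverage was 8.17 and 63.8. Phospho1, a phosphatase of phosphocholine, had 4 sites and coverages of 17.0 and 42.7, and Gpr146, a membrane receptor, had 4 sites and 2.94 and 21.1. Vamp2, a vesicle fusion protein with 5 sites, was near level at 4.27 and 4.70.

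Genes with a site between their listed exons stood further from the background. Of these 83 genes 21 rose (25.3%, 17.2 to 35.6) and 3 fell (3.61%, 1.24 to 10.1), and their median was 0.36. As a base for these genes, 2086 listed genes had a gap between exon starts of at least 3631 bp, enough to hold such a site, and held none: 15.1% of them rose (13.6 to 16.7) and 11.7% fell (10.4 to 13.1). The intervals cover counting error over genes only. Among the 21 was Abcb10, a mitochondrial transporter of heme-forming cells (coverage 14.1 in progenitors and 463 in erythroblasts). Others were Bcl2l1, which encodes the survival factor BCL-XL (5.48 and 53.7), and the glucose transporter gene Slc2a1 (45.1 and 144). Gypc, which encodes glycophorin C (9.96 and 39.6), and Cat, which encodes catalase (52.3 and 185), were also among them. Abcb10, Bcl2l1, Slc2a1, Gypc and Cat each also had 1 peak shared with progenitors assigned to them. Slc2a1 and Gypc further had erythroblast-only peaks within 1 kb. Genes of the group outside the fixed rule, named after their values were seen, were Lmna, which encodes lamin A of the nuclear envelope (62.9 and 304), Mxi1, an antagonist of MYC (4.70 and 26.0), and Nprl3. Nprl3 held 2 sites between its listed exons, chr11:32145030-32146158 and chr11:32155447-32156971, both with an enrichment of 6.61. Its coverage was 15.8 in progenitors and 46.2 in erythroblasts, higher in 8 of 8 listed exons. The 3 that fell were Hif3a, an oxygen-responsive factor (16.5 and 2.08), Cpd, a carboxypeptidase (132 and 36.9), and Tmem164 (9.77 and 2.401), also outside the rule.

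**Figure D4:**
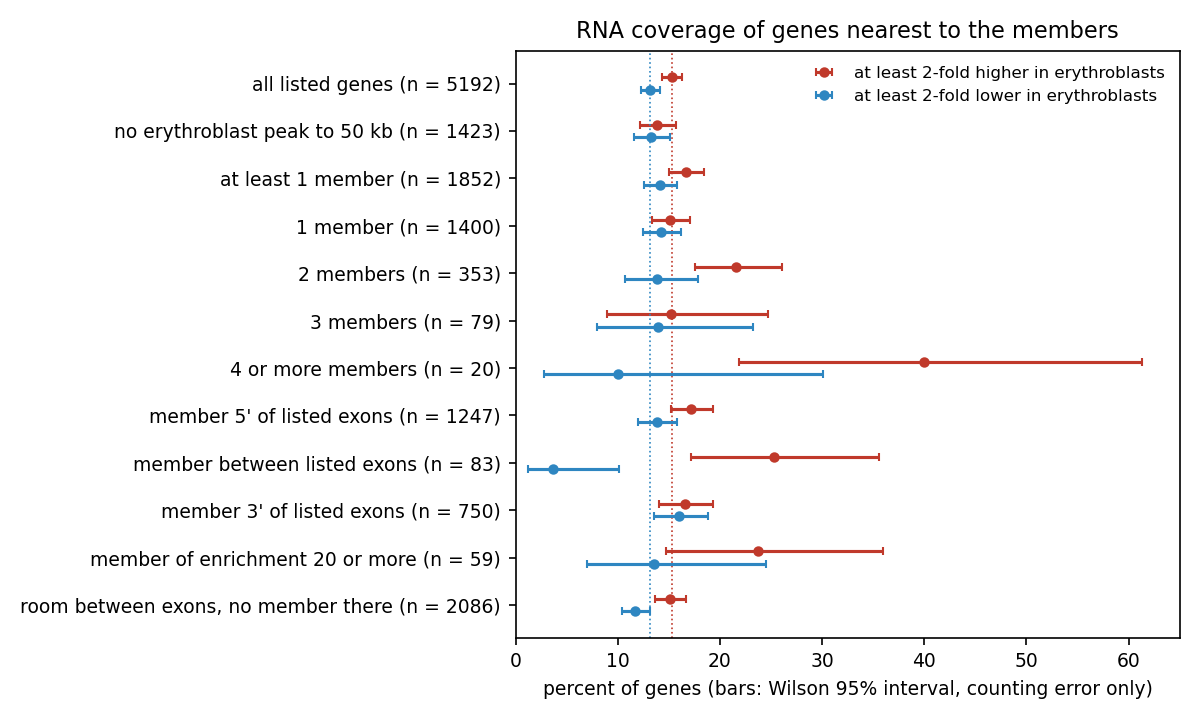
Percent of genes at least 2-fold higher (red) or lower (blue) in erythroblasts, by number, place and strength of their nearest sites; bars are Wilson 95% intervals for counting error and dotted lines the shares over all 5192 listed genes. Genes with a site between their listed exons show 25.3% higher and 3.61% lower, and the whole set of genes with a site lies at 16.6% and 14.1%, next to the dotted lines. Each peak is counted at its nearest listed gene only.

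By function, red cell membrane and skeleton genes had the largest share of genes with a site among the lists. Of its 20 listed genes 13 (65%) were nearest to at least 1 site, against 35.7% of all listed genes, with 22 sites in all. Of these 13, 10 rose and none fell, but 16 of the 20 listed genes rose, so the rise was also seen in the genes with no site. Ank1, which encodes the ankyrin that ties spectrin to the membrane, had 3 sites, chr8:24167951-24170287 on the 5′ side (enrichment 22.71) and 2 on the 3′ side, of which the stronger reached 26.49. Its coverage was 91.0 in progenitors and 817 in erythroblasts and was higher in 31 of 31 listed exons. Sptb, which encodes beta spectrin, had 2 sites, the stronger of enrichment 14.88, and its coverage was 353 in progenitors and 2756 in erythroblasts. Ermap, an erythroid membrane protein, had a site of enrichment 23.15 at chr4:118846080-118847440, 3.18 kb on the 3′ side, and coverages of 90.0 and 206. Atp1b2, a subunit of the sodium pump, had a site of enrichment 16.12 at chr11:69418125-69420446 and rose most of the list, from 2.02 to 123. The members that neither rose nor fell were Bsg (117 and 218), Xk (30.6 and 17.5) and Cd24a (154 and 78.2).

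Heme and iron genes had sites in shares on either side of the 35.7% of all listed genes. Of 10 listed heme genes 3 had a site (30%), and all 3 rose, as did 8 of the 10: Abcb10, Hebp1 (3.99 in progenitors and 145 in erythroblasts, with a site of enrichment 14.88 at 12.1 kb on the 5′ side) and Blvrb, a biliverdin reductase (93.5 and 608). Alas1, the housekeeping enzyme that starts heme synthesis, is not in the table but stands in a gap with 4 sites, the strongest of enrichment 13.23. Of 16 listed iron genes 7 had a site (43.8%) and 3 of these rose, against 6 of the 16, Slc25a37, Slc25a39 (47.7 and 123) and Tfrc, while the ferritin heavy chain gene Fth1 had 789 and 744 with a site of enrichment 17.36. Of 21 listed genes of autophagy and terminal maturation 7 had a site and 5 of these rose, while 13 of the 21 rose. The 5 were Bcl2l1, Trim10 (2.63 and 26.3), the protease gene Atg4d (3.93 and 24.4), Map1lc3b, which encodes an autophagosome protein (5.24 and 18.9), and Riok3 (1.72 and 6.68). Fbxo7, a ubiquitin ligase subunit, had a site of enrichment 23.98 at chr10:85484015-85485833, 1.33 kb on the 5′ side, and coverages of 10.6 and 17.8.

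**Figure D5:**
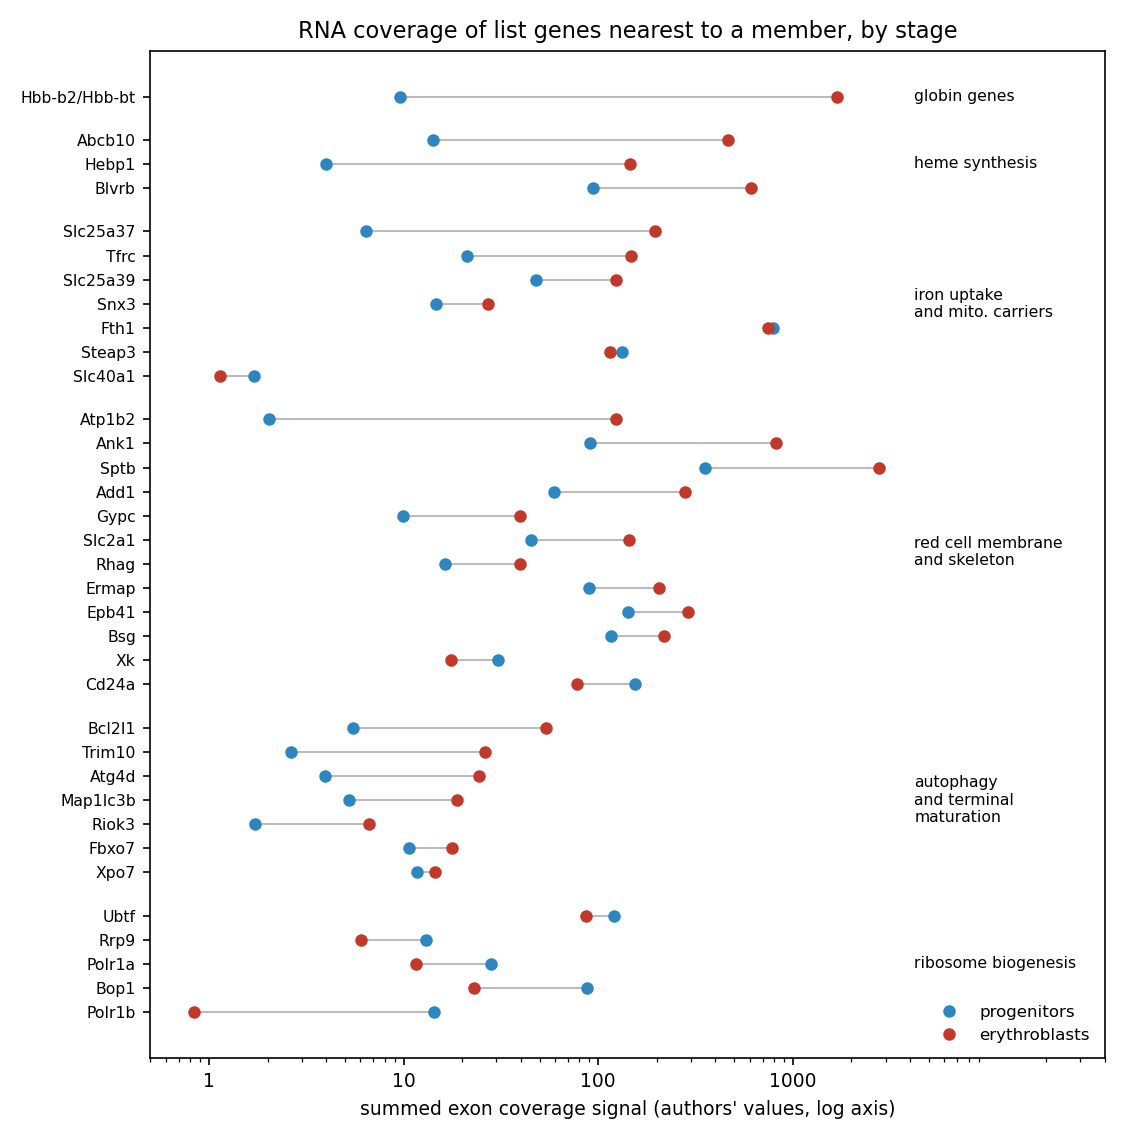
Summed exon coverage (horizontal, the authors' signal, log axis) of list genes nearest to a middle-distance site in progenitors (blue) and erythroblasts (red), by list; the signal is comparable between stages within a gene and not between genes. Ank1 lies at 91.0 and 817, and the ribosome biogenesis genes lie lower in erythroblasts, for example Bop1 at 87.4 and 22.9.

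Erythroid transcription factor and erythropoietin signalling genes often had sites, and those with a site were within 2-fold in RNA about as often as all listed genes. Of 27 listed genes 14 had a site (51.9%), of which 3 rose, 1 fell and 10 did neither, while 7 of the 27 rose and 2 fell. Over all listed genes 3713 of 5192 did neither. Gfi1b, a repressor of red cells and platelets, had a site of enrichment 15.71 at 24.9 kb and coverages of 405 in progenitors and 325 in erythroblasts. Tal1 had 2 sites and 43.2 and 44.9, Nfe2 had 2 sites and 177 and 202, and Zfpm1, which encodes the GATA1 partner FOG1, had 3 sites and 457 and 893, just under 2-fold and higher in 10 of 10 listed exons. The 3 that rose were Bcl2l1, the kinase gene Pim1 (25.3 and 106) and Klf3, a repressor of the same family as EKLF (22.1 and 45.3), with a site of enrichment 15.71. Sh2b3, the adaptor that restrains erythropoietin signalling, fell from 7.39 to 2.72 on 1 listed exon.

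Cell cycle genes were mixed. Of 29 listed genes of S phase and mitosis 12 had a site, of which 3 rose and 1 fell, while 7 of the 29 rose and 2 fell. Ccnb2, a mitotic cyclin with a site of enrichment 19.01 at chr9:70268344-70269999, rose from 26.7 to 72.0, Mki67, a marker of proliferation, from 696 to 1777 and Top2a, a topoisomerase, from 93.4 to 289. Tyms, the thymidylate synthase gene, fell from 30.3 to 8.71. Pcna, the sliding clamp of replication, had a site of enrichment 20 at 9.29 kb on the 5′ side and coverages of 194 and 120. Of 11 listed G1 regulators 2 had a site, Cdkn1b and E2f3 (1.06 and 1.07), while 4 of the 11 rose and 2 fell. Among glycolysis genes 6 of 13 had a site, of which only Pklr, the red cell pyruvate kinase, rose (40.04 and 268). Of the 13 listed, 4 rose.

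Sites also lay near genes that fell. Of 19 listed ribosome biogenesis genes 5 had a site and 4 fell, as did 12 of the 19. Bop1, a factor of large subunit processing, had the strongest site of these 4, chr15:76306809-76309119 with an enrichment of 18.17 at 1.63 kb on the 5′ side, and its coverage was 87.4 in progenitors and 22.9 in erythroblasts, lower in all 10 listed exons. Rrp9, of the small nucleolar RNA machinery, had 13.1 and 6.02, and Polr1a and Polr1b, subunits of RNA polymerase I, had 28.1 and 11.6, and 14.3 and 0.84. Myc had a site of enrichment 6.01 at 1.44 kb on the 5′ side, with the nearest progenitor peak 535 kb away, and coverages of 306 and 55.5. Of 32 listed chromatin genes 11 had a site, of which none rose, and Setdb1 (143 and 41.9) and Mta1 (212 and 55.1) fell. Of all 32, 2 rose and 6 fell. Antioxidant genes had a site in 4 of 17, where Cat rose and Gsr, glutathione reductase, fell from 26.3 to 11.5. Of the 17, 8 rose and 1 fell. The single clustered histone gene with a site, H1f4, of 6 listed, had 0.99 and 2.46. Of 8 listed housekeeping genes 4 had a site and of these Hprt fell, from 5.14 to 1.92, while Actb, the actin gene often taken as level, had 903 and 994. Of the 8, 2 fell.

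The largest changes over all genes with a site ran in both directions. After the globin item, Atp1b2, Abcb10, Hebp1 and Slc25a37, the largest rises were those of Arhgap23 (4.55 in progenitors and 145 in erythroblasts), Slc2a3 (3.49 and 110), Tmcc2 (0.83 and 33.8), Pcx (0.84 and 32.6) and Ptdss2 (1.26 and 30.6). Slc2a3 encodes a glucose transporter and Pcx pyruvate carboxylase. Among these last 5 genes the strongest site had an enrichment of 5.64 at Pcx to 14.88 at Ptdss2. Among the first 5 genes it ran from 9.92 at Abcb10 to 27.28 at the globin item. The largest falls were those of Spn, which encodes the leukocyte antigen CD43 (196 and 6.70), Ier2, an immediate early gene (33.3 and 1.22), Riox1, a nucleolar hydroxylase (52.2 and 2.95), and Nrros (46.7 and 2.68). Apbb1ip (98.2 and 7.36), B4galnt1 (64.6 and 6.26), Macroh2a1, a histone variant gene (161 and 17.3), Mast3 (19.1 and 1.29), Bri3bp (17.1 and 1.07) and Polr1b followed. The strongest sites of these 10 falling genes had enrichments from 6.61 at B4galnt1 to 11.83 at Nrros, which overlaps the range of the rising genes.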

How the data were processed

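The EKLF ChIP-seq and RNA-seq libraries were deposited as 1 pooled peak list per stage and 1 exon table, on build mm9 per the submitters' processing notes. Neither aligner, peak caller nor counter is given in the sources used here. In the deposited lists column 7 is read as the authors' ratio (fold enrichment) and column 8 as the authors' −log10 p. The authors' coverage signal per coding exon is a whole multiple of 1 step in each column, named RPKM by the authors. Input values were not used here.

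Members and gene lists were chosen with earlier results of these data known. An overlap of 1 bp made a peak shared, and distance was taken from the peak's edge. For each gene 1 transcript, that with the most listed exons, was summed, and 6770 of 6853 transcripts matched a RefSeq symbol (GRCm38.p6). Genes needed 1 or more in a stage. The planned limma model needs a column per library and was replaced by the 2-fold rule planned for that case, with a pseudocount of 1, which understates changes of low genes. Shares carry Wilson 95% intervals.

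Named regions were the 10 highest by −log10 p, the 10 highest by enrichment and those nearest the distance limits. Named genes were the 10 with most sites, the 10 that rose most and the 10 that fell most (5 or more in the higher stage), and up to 4 per list with the strongest site, other list genes being given with their lists' counts. A few regions and genes under this rule are not reported here. The steps were tested on simulated data. Alternatives were other overlaps, distances, pseudocounts, filters, scalings, exon summaries and thresholds. Scripts ran in Python 3.11.15 with numpy 2.4.6, pandas 2.3.3, scipy 1.17.1 and matplotlib 3.10.9.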

Additional observations from a re-analysis of the deposited data

How the results depend on the processing

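No paired analysis was possible because the deposited values hold 1 pooled peak list and 1 coverage column per stage. For the same reason no library could be left out. Of 123 alternative values 103 stayed within their counting interval or within 1.5 times the count, and 20 moved. Some of the 103 could not move, because the setting did not touch the value. Examples are medians at a 1.5-fold threshold, and genes with a site between listed exons when all genes within 50 kb were taken. The count of 103 is thus no measure of stability. The median of genes with 4 or more sites, 0.20, changed sign to −0.16 with at least 3 listed exons and to −0.02 without chromosome 14, and was 1.13 with at least 5 in the higher stage, all inside its wide counting interval. The number of sites was 1439 with an upper limit of 20 kb and 935 in the stronger part of the list by −log10 p, where 63.9% lay on the 5′ side, 2.99% between listed exons and 33.2% on the 3′ side. For genes with a site, the percent that rose and fell was 19.4 and 16.4 with a pseudocount of 0.1, 10.4 and 8.80 with 5, 19.3 and 16.4 with at least 5 in the higher stage, and 28.2 and 24.4 at 1.5-fold. With the median of exon ratios 20.5% rose, with a median of 0.10. Over all listed genes the same settings gave 18.1 and 15.6, 9.88 and 7.92, 18.0 and 15.2, and 27.1 and 24.3, and 19.2% rose with the exon median, so the shares moved together. Where no other protein-coding gene stood between the flanking listed genes, an alternative added after seeing the data, 11% of 498 genes fell. Of genes with 4 or more sites 0 fell with a pseudocount of 5, and no share is given where fewer than 5 genes were left. Of genes with a site between listed exons 41.0% rose at 1.5-fold, and in the stronger part of the list 0 of 27 fell, with a median of 0.73. The cause of these shifts was not tested. Genes with at least 3 listed exons and leaving out chromosome 14 were also alternatives added after seeing the data.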
